A study of Mus musculus with 36 samples.

Results

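Voltage-gated sodium channel mRNAs were followed through the ribosome fractions of the newborn mouse brain. The 6 genes described here were taken by name from a raw count table of 16614 rows: the α subunit genes Scn1a, Scn2a, Scn3a and Scn8a and the β subunit genes Scn2b and Scn3b. A sodium channel α subunit is a single long protein that forms the pore, opens when the membrane depolarizes and carries the inward current of the action potential. The β subunits are small proteins with 1 membrane span and an immunoglobulin-like domain outside the cell, which adjust the gating and the surface level of the α subunits. In the brain, Scn2a is the α subunit of young axons, Scn8a comes to dominate the axon initial segment and the nodes of Ranvier as axons mature, Scn3a is mostly embryonic, and Scn1a is best known from inhibitory interneurons.

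The brains came from postnatal day 5 mice, wild type (WT) C57BL/6 or FMR1 KO, which lack FMRP, the RNA-binding protein encoded by Fmr1. Each preparation pooled 10 brains, so no value belongs to a single animal or brain region. Ribosome-protected fragments (RPFs), the short pieces of mRNA shielded from nuclease by a ribosome, were sequenced from the pellet of a sucrose gradient, which is enriched in RNA granules with stalled ribosomes, and from fraction 5/6, which holds smaller ribosome clusters. RNA-seq of the starting brain material gave the mRNA level. The 3 sources were taken from both genotypes in 2 preparations, a standard one with 10 mM MgCl2 and a low nuclease one with 2.5 mM MgCl2. The names refer to the digestion of the ribosomes of the pellet and fraction 5/6, and the RNA-seq libraries take the name of their preparation. This gave 12 groups of 3 libraries and 36 libraries in all. The study describes its samples as separate preparations. The RPF replicates of a group each received their own linker and were then pooled for reverse transcription and PCR. The p-values measure the spread between these libraries only. Below, abundance is a level in one source, occupancy is the pellet or fraction 5/6 relative to RNA, and enrichment is the pellet relative to fraction 5/6.

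The RPF libraries of the standard preparation held 6765065 to 40174168 counts, of which 36.8% to 63.5% fell on Cdk8, a row that was removed throughout. Levels are therefore given as CPM, a gene's count divided by the library total without Cdk8 and multiplied by 1000000. The 6 genes together gave 472 to 1097 counts in a standard pellet library and 28906 to 39169 counts in a standard RNA library. Fmr1 measured 64.7 to 68.0 CPM in the WT pellet and 4.80 to 4.94 CPM in the FMR1 KO pellet, and 61.0 to 72.4 CPM in WT RNA and 16.5 to 18.2 CPM in FMR1 KO RNA. In WT fraction 5/6 it measured 100 and 68.8 CPM in replicates 1 and 2 but 3.18 CPM in the library labelled WT fraction 5/6 replicate 3, below the 6.01 to 10.8 CPM of the FMR1 KO libraries. Which part of Fmr1 the KO allele lacks was not examined here. That library goes against its label, and the tests of the 6 genes that use it are given with and without it. In 3 RNA libraries of the low nuclease preparation (WT replicate 2, FMR1 KO replicates 2 and 3), 10 genes took 81.5% to 85.0% of the counts. The tissue was checked against brain markers: the 4 neuronal markers summed to 2432 to 3513 CPM in standard RNA, and none of them was at 0. In low nuclease RNA their sum fell to 537 CPM in WT and 255 CPM in FMR1 KO. In the standard pellet, skeletal muscle markers reached 315 CPM in WT (median 13.5) and 125 CPM in FMR1 KO (median 12.5). Fewer cells expressing a channel and less mRNA per cell cannot be told apart in these bulk libraries.

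All coordinates refer to GRCm38 with the GENCODE M21 annotation. Scn2a (ENSMUSG00000075318) lies at chr2:65620771-65767447 on the plus strand, Scn3a (ENSMUSG00000057182) at chr2:65457118-65567627 on the minus strand and Scn1a (ENSMUSG00000064329) at chr2:66270778-66440840 on the minus strand, so these 3 α subunit genes share a stretch of chromosome 2. Scn8a (ENSMUSG00000023033) lies at chr15:100869858-101045938 on the plus strand. The β subunit genes Scn2b (ENSMUSG00000070304, chr9:45117782-45130070) and Scn3b (ENSMUSG00000049281, chr9:40269217-40291618) are both on the plus strand of chromosome 9. The α subunit coding sequences run to 6018 nt for Scn2a, 5841 nt for Scn3a, 6027 nt for Scn1a and 5964 nt for Scn8a, against 645 nt for Scn2b and 645 nt for Scn3b. An unlisted gene on the opposite strand overlaps Scn3a, Scn1a, Scn2b and Scn3b, and whether counting used the strand is not stated in the sources used here.

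The α subunits resemble each other closely enough to limit what a short fragment can tell. Over the coding sequence Scn2a was 83.6% identical to Scn3a, 82.7% to Scn1a and 73.8% to Scn8a. Of all 30-nt windows of the Scn2a coding sequence, about the length of one RPF, 18.4% (1102 of 5989) occurred unchanged in a transcript of another gene, as did 20.6% of the Scn3a windows and 14.1% of the Scn1a windows. For Scn8a the share was 1.40%, and for both β subunits it was 0 of 616 windows. Scn9a, another α subunit gene, held 501 of the Scn2a windows and 601 of the Scn3a windows, so its counts carry the same doubt. A fragment from such a window cannot be assigned to one gene by its sequence. How the counting treated fragments that align to several genes is not stated in the sources used here, so the split among Scn2a, Scn3a and Scn1a is less certain than the levels of Scn8a, Scn2b and Scn3b.

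Scn3b and Scn2a mRNAs were the most abundant of the 6 per unit length, and Scn1a mRNA the least. In WT RNA of the standard preparation, CPM per kilobase of exon averaged 11.5 ± 0.335 for Scn3b, 5.55 ± 0.333 for Scn2a, 4.61 ± 1.01 for Scn2b, 3.603 ± 0.0762 for Scn8a, 2.47 ± 0.356 for Scn3a and 1.01 ± 0.175 for Scn1a (SD, n = 3). The libraries of Scn2b overlapped those of its neighbours Scn2a and Scn8a in this order, and the other neighbours did not overlap. In the WT pellet, where RPFs are scaled to the coding length, the order was Scn3b at 19.5 ± 5.42, Scn2b at 4.28 ± 1.47, Scn2a at 3.70 ± 1.60, Scn8a at 1.78 ± 0.777, Scn3a at 1.59 ± 0.826 and Scn1a at 0.416 ± 0.260 CPM per kilobase of coding sequence. Scn3b stood above the rest and Scn1a below them without overlap, while the neighbours among Scn2b, Scn2a, Scn8a and Scn3a overlapped. The FMR1 KO libraries gave the same 2 extremes, with Scn3b at 12.3 ± 2.04 in RNA and 19.2 ± 6.84 in the pellet and Scn1a at 0.781 ± 0.0757 in RNA and 0.318 ± 0.0150 in the pellet on these scales.

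**Figure D1:**
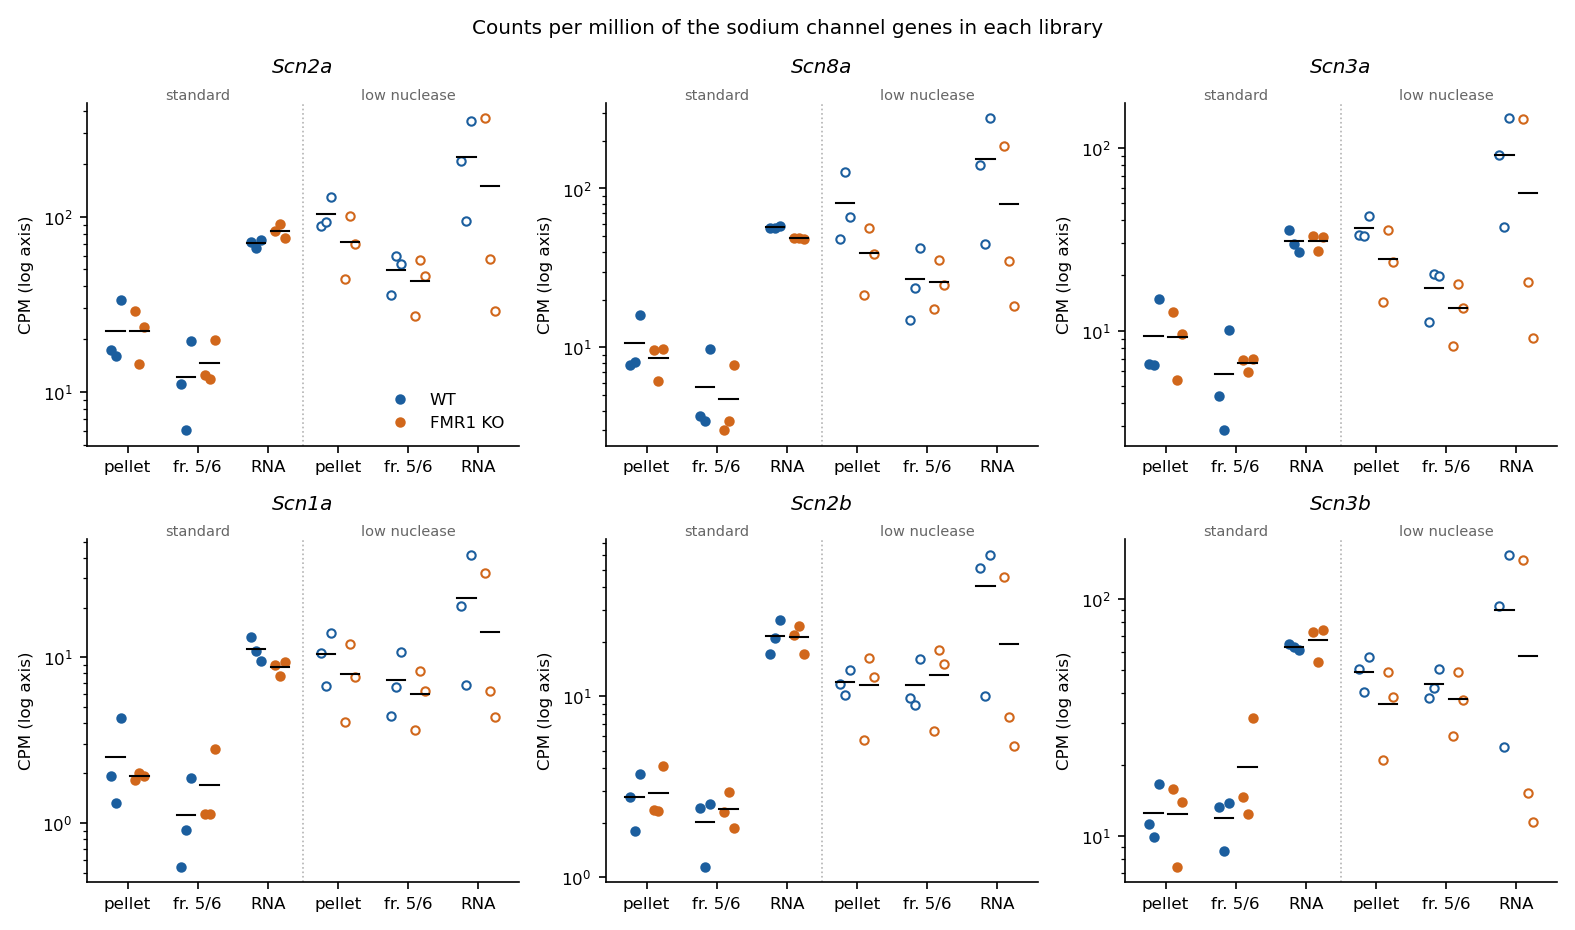
CPM on the total without Cdk8 (log axis) for each of the 6 genes in every library, with WT and FMR1 KO in separate colours, filled points for the standard and open points for the low nuclease preparation, and pellet, fraction 5/6 and RNA side by side. In the standard preparation all 6 genes lie lower in pellet and fraction 5/6 than in RNA in both genotypes.

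Among the α subunits, Scn2a carried the most counts in all 6 standard groups. It measured 17.4, 16.1 and 33.4 CPM in the WT pellet libraries and 29.1, 14.5 and 23.3 CPM in the FMR1 KO pellet libraries. In fraction 5/6 it measured 11.1, 6.03 and 19.6 CPM in WT and 12.5, 11.9 and 19.7 CPM in FMR1 KO. In RNA it measured 72.1, 66.0 and 74.1 CPM in WT and 82.7, 91.5 and 75.4 CPM in FMR1 KO. All pellet libraries thus lay below all RNA libraries, the pellet and fraction 5/6 overlapped, in WT through the library labelled replicate 3, and WT pellet replicate 3 was the highest of the pellet libraries.

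Scn8a measured 7.78, 8.12 and 16.0 CPM in the WT pellet and 9.62, 6.16 and 9.81 CPM in the FMR1 KO pellet. In fraction 5/6 it measured 3.68, 3.42 and 9.71 CPM in WT and 3.00, 3.42 and 7.73 CPM in FMR1 KO. In RNA it measured 56.3, 55.98 and 58.2 CPM in WT and 48.7, 48.9 and 47.8 CPM in FMR1 KO. The RNA groups were tight and did not overlap, and WT pellet replicate 3 again stood highest in the pellet.

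Scn3a, the embryonic α subunit, measured 6.55, 6.48 and 14.9 CPM in the WT pellet, 4.41, 2.85 and 10.1 CPM in WT fraction 5/6 and 35.5, 29.9 and 26.8 CPM in WT RNA. Its FMR1 KO values were 12.6, 5.36 and 9.57 CPM in the pellet, 6.94, 5.93 and 7.03 CPM in fraction 5/6 and 32.9, 27.1 and 32.5 CPM in RNA. The genotypes overlapped in each source, in fraction 5/6 through the library labelled WT replicate 3 alone. Scn1a was the scarcest, at 1.93, 1.31 and 4.29 CPM in the WT pellet, which rests on 41, 16 and 51 counts, and at 0.543, 0.911 and 1.88 CPM in WT fraction 5/6, which rests on 9, 8 and 23 counts. In FMR1 KO, Scn1a measured 1.82, 2.00 and 1.93 CPM in the pellet and 1.14, 1.14 and 2.81 CPM in fraction 5/6. The 2 sources overlapped in both genotypes, in WT through the library labelled fraction 5/6 replicate 3. In RNA Scn1a measured 13.4, 10.9 and 9.53 CPM in WT and 9.03, 7.75 and 9.34 CPM in FMR1 KO. Its RPF values rest on the fewest counts of the set, and for both genes WT pellet replicate 3 was the highest WT pellet library.

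The β subunit Scn2b measured 2.78, 1.80 and 3.70 CPM in the WT pellet, 2.41, 1.14 and 2.53 CPM in WT fraction 5/6 and 17.05, 21.0 and 26.4 CPM in WT RNA. In FMR1 KO, Scn2b measured 2.34, 2.32 and 4.10 CPM in the pellet, 2.28, 2.96 and 1.87 CPM in fraction 5/6 and 21.8, 24.5 and 17.2 CPM in RNA. The genotypes overlapped in each source. Scn3b measured 11.3, 9.92 and 16.6 CPM in the WT pellet, 13.3, 8.65 and 13.9 CPM in WT fraction 5/6 and 64.8, 62.7 and 61.1 CPM in WT RNA. In FMR1 KO, Scn3b measured 15.9, 7.44 and 13.9 CPM in the pellet, 14.6, 12.5 and 31.6 CPM in fraction 5/6 and 72.6, 54.1 and 74.2 CPM in RNA. Both β subunits lay lower in pellet and fraction 5/6 than in RNA without overlap, and neither separated the pellet from fraction 5/6. Over the 6 genes, pellet and RNA did not overlap in CPM for 6 of 6 with the pellet lower in WT and in FMR1 KO, where 70.2% and 67.2% of all genes tested did the same. Fraction 5/6 lay below RNA without overlap for 6 of 6 in both genotypes, beside 66.3% of all genes in WT and 60.1% in FMR1 KO. Pellet and fraction 5/6 overlapped for 6 of 6 in both genotypes, where 5.91% of all genes in WT and 27.9% in FMR1 KO did not. The WT overlap of the α subunits came from the library labelled WT fraction 5/6 replicate 3 alone. With that library left out, the pellet lay above fraction 5/6 without overlap for 4 of 6 genes (Scn2a, Scn8a, Scn3a and Scn1a), beside 21.6% of all genes, and Scn2b and Scn3b still overlapped. Fraction 5/6 then again lay below WT RNA for 6 of 6, beside 73.4%.

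Pellet occupancy compares the ribosomes of the pellet on an mRNA with the amount of that mRNA. Whether all of these ribosomes are stalled is not measured by the counts. In WT, Scn8a, Scn2b and Scn3b were lower in the pellet than in RNA, and Scn2a, Scn3a and Scn1a did not pass the test. The log2 fold change was −1.25 for Scn8a (SE 0.30, adjusted p = 0.0083), −1.78 for Scn2b (SE 0.30, adjusted p = 0.00144) and −1.15 for Scn3b (SE 0.23, adjusted p = 0.00324; quasi-likelihood test of edgeR, Benjamini-Hochberg adjusted over all genes). It was −0.48 for Scn2a (SE 0.31, adjusted p = 0.201), −0.55 for Scn3a (SE 0.36, adjusted p = 0.212) and −1.004 for Scn1a (SE 0.43, adjusted p = 0.072). Thus 3 of 6 genes were called lower where 34.2% of the 16094 genes tested were, and 0 of 6 were called higher where 31.1% were. The median of the 6 was −1.07 against −0.10 over all genes. These fold changes use TMM scaling, which sets the bulk of genes near no change. With library size alone the median of all genes moved to −1.26 in WT and −1.16 in FMR1 KO, which is why the CPM values fall further from RNA than the fold changes.

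Scn8a, Scn2b and Scn3b were called with any 1 library left out, whereas the calls of the other 3 genes turned on 1 library. Without WT pellet replicate 3, 6 of 6 genes were lower, beside 34.7% of all genes, with Scn2a at −0.96 (edgeR, adjusted p = 0.00052), Scn3a at −1.13 (adjusted p = 0.00113) and Scn1a at −1.64 (adjusted p = 0.00189).

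In FMR1 KO, 6 of 6 genes were lower in the pellet than in RNA, beside 35.1% of all genes. The log2 fold changes were −0.82 for Scn2a (SE 0.16, edgeR adjusted p = 0.00362), −1.42 for Scn8a (SE 0.09, adjusted p = 2.34e-05), −0.67 for Scn3a (SE 0.19, adjusted p = 0.0177), −1.06 for Scn1a (SE 0.21, adjusted p = 0.00372), −1.77 for Scn2b (SE 0.24, adjusted p = 0.000622) and −1.35 for Scn3b (SE 0.18, adjusted p = 0.000463). The median of the 6 was −1.21 against −0.07 over all genes. In both genotypes Scn2b had the lowest estimate and Scn2a and Scn3a those nearest to 0. Fitting all standard libraries together left 3 of 6 called in FMR1 KO, with 10001 of 15036 genes called in either direction. The Scn3a call was lost without FMR1 KO pellet replicate 3 (−0.65, edgeR adjusted p = 0.0599). It was also lost without FMR1 KO RNA replicate 1 (−0.60, adjusted p = 0.0631) and without FMR1 KO RNA replicate 3 (−0.63, adjusted p = 0.0558). These estimates stayed near the −0.67 of all libraries.

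RNA-seq reads cover whole transcripts and RPFs mostly the coding part, and the 6 genes differ in how much of the transcript is coding. The coding part of the transcript with the longest coding sequence was 67.4% for Scn2a, 52.2% for Scn8a, 61.1% for Scn3a and 71.9% for Scn1a, but 13.9% for Scn2b and 15.5% for Scn3b. The 2 β subunits and Scn8a, the 3 genes with the lowest coding shares, were the 3 called lower in WT. The part of the coding share in the occupancy values was not tested.

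Occupancy of fraction 5/6 was measured against the same RNA libraries and so shares them with the pellet values. In WT all 6 genes were lower in fraction 5/6 than in RNA, at −1.32 for Scn2a, −2.11 for Scn8a, −1.19 for Scn3a, −2.12 for Scn1a, −2.16 for Scn2b and −1.15 for Scn3b (log2, edgeR adjusted p of 0.0305 for Scn3a and at most 0.00847 for the others), beside 27.6% of all genes. Leaving out the library labelled WT fraction 5/6 replicate 3 again gave 6 of 6, beside 32% of all genes, with Scn8a at −2.74 and Scn1a at −2.79. Scn3a failed the test whenever 1 WT RNA library was left out (adjusted p from 0.0529 to 0.0995), with estimates of −1.04, −1.18 and −1.28. In FMR1 KO all 6 genes were lower, at −1.62, −2.57, −1.26, −1.59, −2.11 and −0.95 in the same order (edgeR adjusted p of at most 0.00447), beside 33.1% of all genes. Scn8a was thus the lowest in FMR1 KO, and Scn3b the nearest to 0 in both genotypes.

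**Figure D2:**
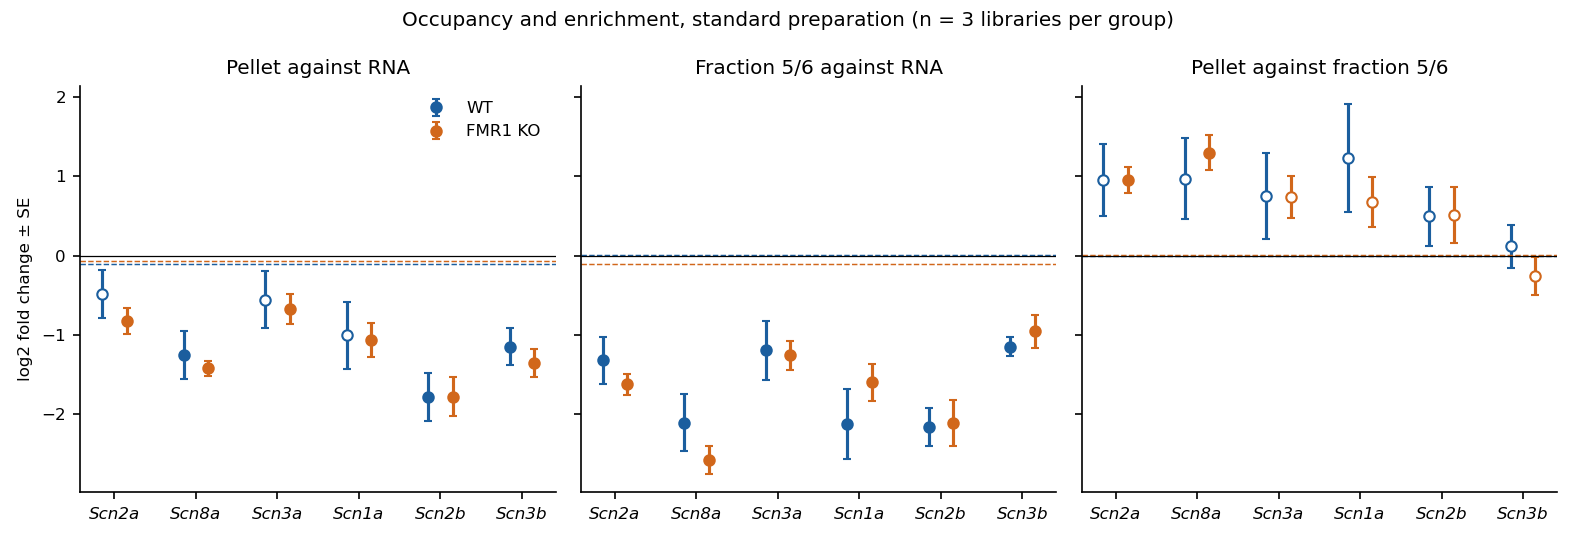
Log2 fold changes with their SE for the 6 genes in 3 comparisons of the standard preparation: pellet against RNA, fraction 5/6 against RNA and pellet against fraction 5/6, with WT and FMR1 KO side by side and filled points for an adjusted p under 0.05. All estimates against RNA lie below 0, and in pellet against fraction 5/6 the filled points are Scn2a and Scn8a in FMR1 KO.

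Enrichment compares the ribosomes of the pellet with those of fraction 5/6 and does not involve RNA-seq. With all libraries the α subunits had higher estimates than the β subunits in both genotypes, and only Scn2a and Scn8a in FMR1 KO passed the test in the standard preparation. In WT the log2 fold change was 0.95 for Scn2a (SE 0.45, edgeR adjusted p = 0.639), 0.97 for Scn8a, 0.76 for Scn3a, 1.23 for Scn1a, 0.50 for Scn2b and 0.12 for Scn3b, and 0 of 6 genes were called. The background was equally low at 0.023% of genes in either direction, 3 of 13052. An unadjusted p under 0.05 was reached by 817 genes, and DESeq2 called 90. Without the library labelled WT fraction 5/6 replicate 3, 1261 genes were called. The estimates then rose to 1.38 for Scn2a (adjusted p = 0.124), 1.54 for Scn8a (adjusted p = 0.122), 1.34 for Scn3a and 1.81 for Scn1a, and still 0 of 6 passed, beside 7.72% of all genes called higher. Without WT pellet replicate 3 they moved the other way, to 0.46 for Scn2a, 0.16 for Scn3a and −0.20 for Scn3b, and Scn3a then lay below Scn2b at 0.19.

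In FMR1 KO, Scn8a was higher in the pellet than in fraction 5/6 by 1.30 (log2, SE 0.22, edgeR adjusted p = 0.0134) and Scn2a by 0.95 (SE 0.17, adjusted p = 0.0147). Scn3a at 0.75 (adjusted p = 0.117), Scn1a at 0.68 (adjusted p = 0.208), Scn2b at 0.51 (adjusted p = 0.370) and Scn3b at −0.25 (adjusted p = 0.515) did not pass. The 2 of 6 genes called higher stand beside 10.1% of all genes. Both fell short of the threshold without FMR1 KO pellet replicate 1, with Scn2a at 0.72 (adjusted p = 0.0644) and Scn8a at 1.20 (adjusted p = 0.0768), and without FMR1 KO fraction 5/6 replicate 1, with Scn2a at 0.97 (adjusted p = 0.0581) and Scn8a at 1.16 (adjusted p = 0.0626). So did Scn8a at 1.29 without FMR1 KO pellet replicate 3 (adjusted p = 0.0521) and Scn2a at 0.93 without FMR1 KO fraction 5/6 replicate 3 (adjusted p = 0.0747). Apart from Scn2a without FMR1 KO pellet replicate 1, these estimates differ from those of all libraries by less than their SE. With library size alone, which moved the median of all genes to −0.33, 0 of 6 were called, and the calls over all 13248 genes went from 1530 to 163.

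The low nuclease libraries, a second set from the same kinds of brains, held the channels at higher CPM in the pellet. Scn2a measured 88.1, 93.1 and 129 CPM in the WT pellet and 43.9, 100 and 70.0 CPM in the FMR1 KO pellet, and Scn8a 48.0, 128 and 66.2 CPM in the WT pellet. The other genes were higher than in the standard pellet as well, with WT pellet ranges of 32.8 to 42.3 CPM for Scn3a, 6.69 to 14.03 CPM for Scn1a, 10.1 to 13.9 CPM for Scn2b and 40.5 to 56.8 CPM for Scn3b. Fraction 5/6 ranged from 35.9 to 59.3 CPM for Scn2a, 14.9 to 42.2 CPM for Scn8a, 11.1 to 20.4 CPM for Scn3a, 4.42 to 10.8 CPM for Scn1a, 8.89 to 16.1 CPM for Scn2b and 38.4 to 50.6 CPM for Scn3b in WT. In WT the pellet lay above fraction 5/6 without overlap for 3 of 6 genes (Scn2a, Scn8a and Scn3a) beside 17.8% of all genes, and overlapped it for Scn1a, Scn2b and Scn3b. In FMR1 KO the pellet overlapped fraction 5/6 for Scn2a (43.9 to 100 against 27.2 to 56.6 CPM). It also did so for Scn8a (21.4 to 56.7 against 17.4 to 35.7 CPM) and Scn3a (14.2 to 35.7 against 8.28 to 18.1 CPM). Scn2a RNA in this preparation spread from 95.04 to 354 CPM in WT and from 29.0 to 365 CPM in FMR1 KO, with the lowest values in the 3 RNA libraries that 10 genes dominate. Against their own RNA, 5 of 6 genes were lower in the WT pellet beside 25.5% of all genes, with Scn8a at −1.10 not passing (edgeR adjusted p = 0.0764), and 6 of 6 were lower in the FMR1 KO pellet beside 12.9%. Leaving out the 3 dominated RNA libraries, which leaves 1 FMR1 KO RNA library that is assumed to vary like the rest, gave 5 of 6 in WT beside 29.8% of all genes and 2 of 6 in FMR1 KO (Scn2a at −1.92 and Scn3a at −2.11) beside 19.1%. For fraction 5/6 against its own RNA, 6 of 6 genes were lower in each genotype, beside 29.6% of all genes in WT and 17% in FMR1 KO.

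Occupancy of the low nuclease pellet changed direction when the RNA libraries of the standard preparation took the place of its own. In WT, Scn2a was then higher in the pellet by 1.02 (log2, edgeR adjusted p = 0.00083), Scn8a by 1.01 (adjusted p = 0.0390) and Scn3a by 0.70 (adjusted p = 0.00491), 3 of 6 beside 30.9% of all genes called higher, and 0 of 6 were called lower beside 33.4%. Scn1a at 0.35, Scn3b at 0.11 and Scn2b at −0.38 did not pass. In FMR1 KO, 0 of 6 were called, with estimates from −0.41 for Scn3b to 0.34 for Scn1a, beside 34% lower and 27.1% higher over all genes. The sign of the α subunits' occupancy in low nuclease RPFs therefore rests on which RNA libraries serve as the reference, and preparation and nuclease cannot be told apart in that comparison. The low nuclease fraction 5/6 on standard RNA gave 0 of 6 genes lower in WT beside 28.4% of all genes, and 1 of 6 in FMR1 KO (Scn3a at −0.83, edgeR adjusted p = 0.0287) beside 30%.

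**Figure D3:**
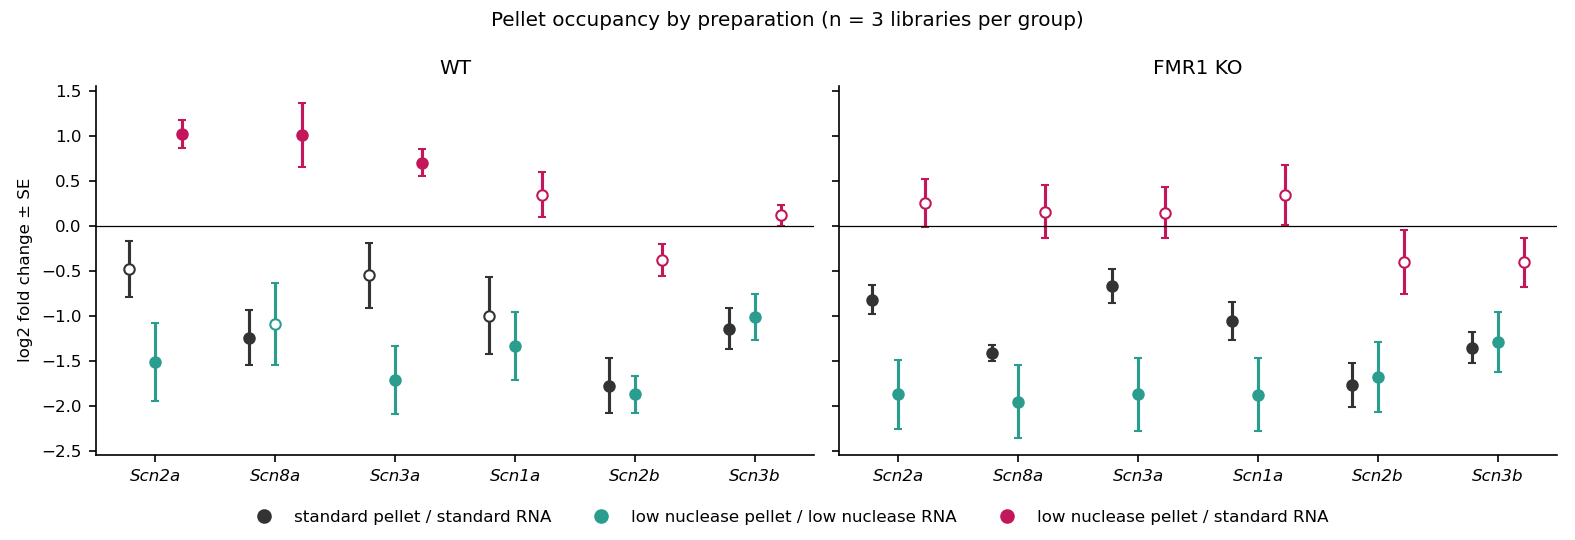
Pellet occupancy (log2 fold change ± SE) of the 6 genes in WT and FMR1 KO for the standard preparation, the low nuclease preparation with its own RNA, and the low nuclease pellet on the standard RNA, with filled points for an adjusted p under 0.05. The first 2 sets lie below 0 for all 6 genes. On standard RNA the α subunits lie above 0 in both genotypes, as does Scn3b in WT. Among these, the filled points are Scn2a, Scn8a and Scn3a in WT.

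Enrichment does not use RNA libraries. In the low nuclease WT libraries Scn2a was higher in the pellet than in fraction 5/6 by 1.18 (edgeR adjusted p = 0.0203) and Scn3a by 1.20 (adjusted p = 0.0201), 2 of 6 beside 14.3% of all genes called higher, and Scn8a at 1.75 did not pass (adjusted p = 0.0512). In the low nuclease FMR1 KO libraries 0 of 6 were called, with Scn2a at 0.92 (adjusted p = 0.110), Scn3a at 1.08 (adjusted p = 0.0923) and Scn8a at 0.78 (adjusted p = 0.186), beside 9.28% called higher over all genes. The estimates for the 4 α subunits were above 0 in both genotypes and both preparations, from 0.58 to 1.75. Those for the β subunits ran from −0.25 to 0.51, and none passed. The Scn8a estimate of 1.75 includes low nuclease WT pellet replicate 2, at 128 CPM against 48.0 and 66.2 CPM in replicates 1 and 3. That library also enters the Scn8a occupancy of this preparation in WT, and no fit without it was run.

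The loss of FMRP moved none of the 6 genes past the test. FMR1 KO against WT gave log2 fold changes from −0.35 for Scn1a to 0.07 for Scn2b in the pellet, from −0.62 for Scn8a to 0.34 for Scn3b in fraction 5/6 and from −0.35 for Scn1a to 0.27 for Scn2a in RNA. The change of occupancy between genotypes, tested as an interaction, ran from −0.30 for Scn2a to 0.05 for Scn2b, and the change of enrichment from −0.59 for Scn1a to 0.29 for Scn8a. Single libraries moved these ranges. Leaving out the library labelled WT fraction 5/6 replicate 3 shifted fraction 5/6 to a range of −0.09 to 0.77 and enrichment to −1.13 to −0.11. Leaving out WT pellet replicate 3 shifted the pellet to 0.17 to 0.54 and occupancy to 0.10 to 0.58, so that the pellet median of the 6 genes moved from −0.05 to 0.34. In the low nuclease libraries the estimates ran from −0.99 to 0.05 with a median of −0.40 in the pellet, from −0.39 to 0.17 in fraction 5/6, from −0.28 to 0.29 in RNA, from −0.85 to 0.20 for occupancy and from −0.97 to −0.08 for enrichment. In each of these 5 comparisons 0 of 6 genes were called by edgeR, also without either library and in the low nuclease libraries. Over all genes 0.0153% were called in the pellet, 0% in fraction 5/6, 0.074% in RNA, 0.0674% for occupancy and 0% for enrichment. In the same order 701, 588, 418, 999 and 761 genes reached an unadjusted p under 0.05, and DESeq2 called 66, 73, 24, 63 and 41. The enrichment calls of Scn2a and Scn8a in FMR1 KO are therefore not shown to differ from WT.

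In the standard preparation the RNA levels of 3 α subunits separated the genotypes without passing the correction. Scn8a RNA lay at 55.98 to 58.2 CPM in WT and at 47.8 to 48.9 CPM in FMR1 KO, and Scn1a RNA at 9.53 to 13.4 CPM and 7.75 to 9.34 CPM. Scn2a RNA went the other way, from 66.0 to 74.1 CPM in WT to 75.4 to 91.5 CPM in FMR1 KO. The groups did not overlap for these 3 of 6 genes, beside 7.99% of all genes in either direction, while Scn3a, Scn2b and Scn3b overlapped. In low nuclease RNA, with the dominated libraries included, the same 3 genes overlapped between WT and FMR1 KO. There Scn8a lay at 44.9 to 277 CPM in WT and 18.1 to 186 CPM in FMR1 KO. Scn1a lay at 6.85 to 41.7 CPM and 4.37 to 32.3 CPM, and Scn2a at 95.0 to 354 CPM and 29.0 to 365 CPM.

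Within a library the 4 α subunits can be compared without any scaling between libraries. Scn2a gave 50.2% ± 1.52 of the α subunit counts in the WT pellet and 41.7% ± 1.93 in WT RNA (SD, n = 3), and Scn8a gave 23.9% ± 1.27 and 33.6% ± 1.57. The Scn2a share was 48.7% to 51.7% in the WT pellet libraries and 40.5% to 43.9% in the WT RNA libraries, so the ranges did not overlap. WT fraction 5/6 gave 49.8% ± 5.67 for Scn2a, with 56.3% and 45.7% in replicates 1 and 2, on both sides of the pellet range. In FMR1 KO the Scn2a share was 52.9% ± 1.60 in the pellet and 48.5% ± 3.34 in RNA, and the Scn8a share 20.7% ± 2.24 and 28.3% ± 0.553. There the Scn2a ranges of pellet and RNA overlapped and the Scn8a ranges did not. In the low nuclease preparation the Scn2a share was 45.3% ± 8.37 in the WT pellet and 46.8% ± 4.40 in WT RNA, the Scn8a share was 34.0% ± 13.02 and 29.6% ± 4.77, and both pairs of ranges overlapped. WT pellet replicate 2 (35.8% Scn2a and 49.0% Scn8a) and WT RNA replicate 2, which 10 genes dominate (51.7% and 24.4%), lay apart from the other libraries of their groups. Replicates 1 and 3 are given alone only after replicate 2 was set aside on these shares, so they add no separate support. Their Scn2a share was 48.9% and 51.3% in the pellet and 45.3% and 43.3% in RNA. Their Scn8a share was 26.7% and 26.3% in the pellet and 30.5% and 33.8% in RNA. In FMR1 KO the low nuclease pellet and RNA gave 50.5% ± 1.80 and 49.1% ± 1.22 for Scn2a and 27.0% ± 1.21 and 28.4% ± 2.42 for Scn8a, again with overlap. Scn3a and Scn1a differed less, at 20.5% and 18.1% for Scn3a and 5.36% and 6.62% for Scn1a in WT pellet and WT RNA. No test was run on these shares, for which an exact permutation test of 3 against 3 libraries cannot go below p = 0.10, and RNA shares also reflect how much of each transcript is coding.

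**Figure D4:**
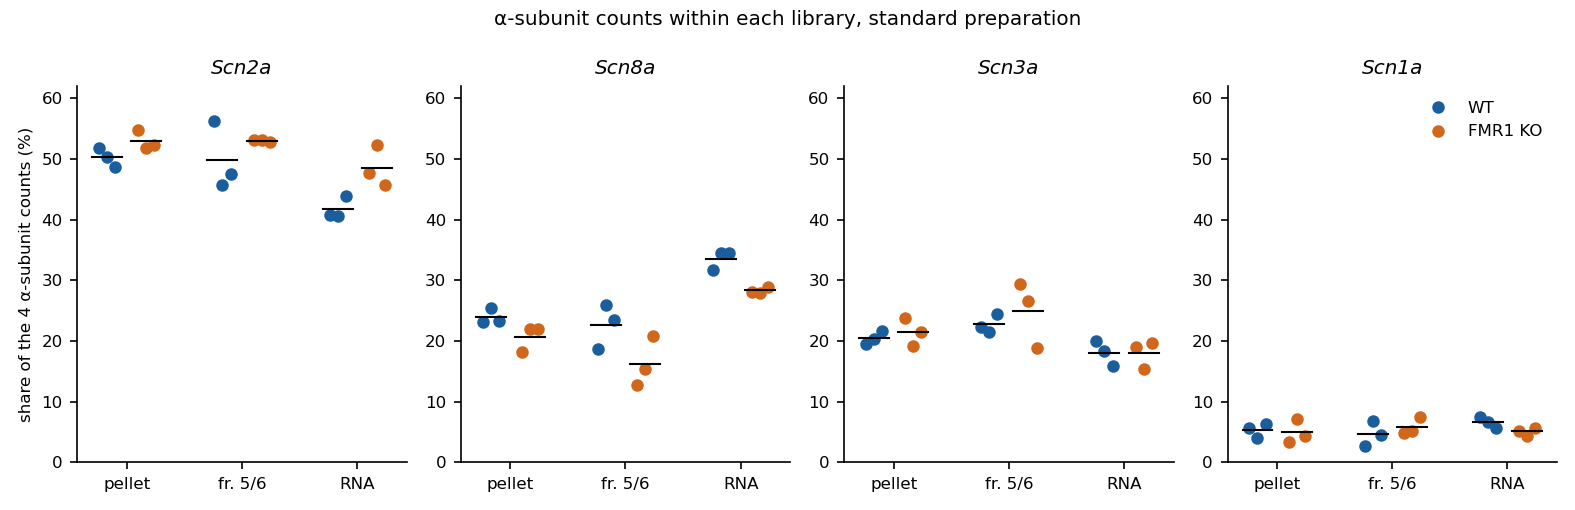
Share (%) of the summed Scn1a, Scn2a, Scn3a and Scn8a counts that each gene took in every standard library, by source and genotype, with a line at the mean of 3 libraries. In pellet and RNA the Scn2a and Scn8a shares shift in opposite directions, with Scn2a at 50.2% and 41.7% and Scn8a at 23.9% and 33.6% in WT.

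No deposited RPF peak, a site where footprints pile up on a transcript, fell on any of the 6 genes in the 12 standard libraries with peak lists. How much this says depends on depth. Scn3b had 118 to 378 counts per kilobase of coding sequence in these libraries, and 20.9% to 65.1% of genes within 2-fold of its density had a peak. For Scn2a that share was 0.0342% to 11.6% and for Scn2b 0.120% to 15.5%. For Scn8a and Scn3a it did not exceed 1.76%, and for Scn1a it did not exceed 0.0518%, so peaks were rare at the density of those 3 genes.

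Other sodium channel genes were compared in the same tests. In WT occupancy the β subunit Scn4b was lower at −1.56 (edgeR adjusted p = 0.0179), as was Scn9a, the α subunit of peripheral sensory neurons, at −2.31 (adjusted p = 0.00155). The leak channel Nalcn at −0.01, Scn11a at −0.70 and Scn7a at 0.47 did not pass. Scn4a, the skeletal muscle channel, was called higher at 14.98, but it measured 844 and 938 CPM in WT pellet replicates 1 and 2, 0.168 CPM in replicate 3 and 0.0328 to 0.0436 CPM in WT RNA, so the call rests on 2 libraries. In FMR1 KO enrichment Nalcn was higher by 1.55 (edgeR adjusted p = 0.00724). None of these genes had a peak, and their footprint density was not compared with that of genes with peaks.

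Of 16 genes whose products bind, anchor or regulate sodium channels, 4 were lower and 5 higher in WT occupancy and 7 did not pass, with a median of 0.05, beside 34.2% of all genes called lower and 31.1% called higher. The 4 with the largest changes were Ptprz1, a receptor phosphatase, at 1.86, Cntn1, an axonal adhesion molecule, at 1.46, Fgf11, an intracellular fibroblast growth factor homologue, at −1.40 and the calmodulin gene Calm3 at −1.34. In FMR1 KO enrichment 7 of 16 were higher, led by the adhesion molecules Cntn1 (1.59), Nrcam (1.57) and Nfasc (1.52) and by Ptprz1 (1.39), beside the 10.1% of all genes. In WT enrichment 0 of 16 were called beside 0.023% of all genes in either direction, and 3 were higher and 1 lower once the library labelled WT fraction 5/6 replicate 3 was left out, beside 7.72% of all genes called higher and 1.79% called lower. Fgf12, Fgf13, Calm2, Calm3, Gpd1l and Celf4 had peaks in 12 of 12 libraries, and the anchoring genes Ank3, Sptbn4, Nfasc and Nrcam had none. The footprint density of these genes was not compared, so their difference in peaks cannot be read apart from depth.

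Across the 6 standard groups Scn2a and Scn3a followed the most similar course of any 2 of the 6 genes. The measure is the root mean square difference of group mean log2 CPM after centring each gene, over 15036 genes. All 3 WT fraction 5/6 libraries entered these means. The difference was 0.113 between Scn2a and Scn3a, which made Scn3a the second nearest of all genes to Scn2a after Tarbp1 at 0.112. The reverse did not hold: the 3 genes nearest to Scn3a lay at 0.0503 to 0.0730, and Scn2a was not among them. Of the 30-nt windows, 776 of Scn2a occurred in Scn3a transcripts and 831 of Scn3a in Scn2a transcripts. The part of shared fragments in the likeness of Scn2a and Scn3a was not tested. The nearest genes were Tmem119 (0.156) for Scn8a, Atg9a (0.0503) for Scn3a, Mettl7a1 (0.132) for Scn1a, Adgrl1 (0.0259) for Scn2b and 2700062C07Rik (0.0389) for Scn3b. The calcium channel gene Cacna1g and the potassium channel gene Kcnj12 came next for Scn8a, at 0.172 and 0.178. Scn8a and Scn3b were the least alike of the 6, at 0.663.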

How the data were processed

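RPFs and RNA-seq were analysed from the deposited table of raw counts per gene (36 libraries) and from 12 deposited peak lists, whose signal is the height of RPF coverage on a transcript. Per the submitters' notes and the study's methods, the authors trimmed reads with cutadapt 2.10, removed rRNA and ncRNA with Bowtie2 2.3.5, aligned to GRCm38 with STAR 2.7.8a, removed PCR duplicates with Picard and SAMtools 1.19.2 and counted with featureCounts 2.2.0. Whether duplicates were told apart by molecular identifiers or by position alone is not given in the sources used here. In the second case, distinct fragments of the same short stretch count once. The peak rule of the study asks for a maximum severalfold above the transcript mean that recurs within 6 nt in all biological samples. Whether the lists were already filtered by this rule is not given in the sources used here.

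Rows without a gene name (92 rows, 0.0522% to 0.607% of counts) and Cdk8 were left out. Of the 16481 protein-coding rows by GENCODE M21, all but Cdk8 entered the fits. edgeR 4.0.16 (R 4.3.3) fitted the libraries of each comparison with TMM factors, filterByExpr and quasi-likelihood tests. Calls need a Benjamini-Hochberg adjusted p under 0.05 over all genes of that fit. SE is the log2 fold change divided by the square root of F. Scripts were tested on simulated data. Alternatives were DESeq2 1.42.0, library size alone, other filters, 1 fit of all standard libraries, a replicate block, each library left out and the low nuclease libraries. The 6 genes, the lists and the naming rule (all 6, other channel genes that pass the WT occupancy filter, the 4 partners with the largest called change, the 3 most similar genes) were chosen with earlier results of these data known. Some listed genes and sequences are not reported here. Coordinates and sequence comparisons use the GRCm38 reference. No 2 libraries held identical values among 630 pairs.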

Additional observations from a re-analysis of the deposited data

How the results depend on the processing

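DESeq2, other filters on low counts, keeping Cdk8 and all gene types kept the direction of all 36 estimates of the 6 genes in the 6 comparisons within a genotype, and DESeq2 alone among them changed a call, adding Scn1a in WT occupancy (adjusted p = 0.0225). The count of genes lower in WT occupancy was 3, and became 6 with library size alone (12291 of 16094 genes called in either direction, against 10509), 5 in the low nuclease preparation, 5 there with the 3 dominated RNA libraries left out, and 0 for the low nuclease pellet on standard RNA, where 3 were called higher. In FMR1 KO it was 6, and became 3 in 1 fit of all standard libraries, 0 for the low nuclease pellet on standard RNA and 2 in the low nuclease preparation without the dominated RNA libraries. For fraction 5/6 it was 6 in each genotype, and became 0 in WT and 1 in FMR1 KO with the low nuclease fraction on standard RNA, and 5 in FMR1 KO in the low nuclease preparation without the dominated RNA libraries (Scn2b at −1.52, edgeR adjusted p = 0.0915). The count of genes higher in WT enrichment was 0 and became 2 in the low nuclease preparation. In FMR1 KO it was 2, and became 0 with library size alone, 1 in 1 fit of all standard libraries and 0 in the low nuclease preparation. The cause was not tested.

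On standard RNA the low nuclease pellet estimates changed sign in WT for Scn2a (1.02), Scn8a (1.01), Scn3a (0.70), Scn1a (0.35) and Scn3b (0.11), and in FMR1 KO for Scn2a (0.25), Scn8a (0.16), Scn3a (0.15) and Scn1a (0.34). Scn3b enrichment changed sign in the low nuclease FMR1 KO libraries (0.13). Leaving out 1 library at a time gave 3 to 6 genes lower in WT occupancy, 5 to 6 in FMR1 KO occupancy, 0 to 2 higher in FMR1 KO enrichment and 5 to 6 lower in WT fraction 5/6 occupancy, and WT enrichment of Scn3b from −0.20 to 0.32. Between genotypes it gave lowest estimates of −0.70 to 0.17 in the pellet, −0.91 to −0.09 in fraction 5/6, −0.51 to 0.10 for occupancy and −1.13 to −0.08 for enrichment. The highest estimates ran from −0.20 to 0.54, 0.31 to 0.77, −0.21 to 0.58 and −0.11 to 0.79 in the same order, and 0 of 6 genes were called throughout. The settings with the low nuclease fraction 5/6 on standard RNA and without the dominated RNA libraries were chosen after seeing the data. So were the overlap of CPM without 1 library and the low nuclease WT shares of replicates 1 and 3 alone.

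With the replicate number as a block, counts of genes called were the same as without it: 3 lower in WT occupancy, 6 in FMR1 KO occupancy, 2 higher in FMR1 KO enrichment. The labels do not say that a number marks a shared preparation, and the correlations show pairing neither throughout nor as absent. Of 45 pairs of same-numbered libraries, 11 correlated above 0.1 (range −0.127 to 0.257). In 23 of the 45 the own number correlated best among the 3 numbers available. The main tests leave the number out. Scn4a, at 367 to 11624 CPM in replicates 1 and 2 of the 4 standard RPF groups, was at 0 to 0.322 CPM in replicate 3 of each. Depth limits Scn1a most. Intervals cover counting error and library spread only.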
